A study of Mus musculus with 12 samples.

Results

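Histone H3 lysine 4 trimethylation (H3K4me3) was compared between mouse embryonic stem cells that express a netrin-1 transgene and cells that carry the empty vector. The comparison rests on 6 of the 12 libraries of the study: the 3 labelled netrin-1 with the H3K4me3 antibody and the 3 labelled vector control with the same antibody. The other 6 libraries hold H3K27me3. All cells grew in serum with LIF and were stably transfected with the plasmid ppy-cagg-ires-puro, either empty or encoding netrin-1, so the puromycin cassette is shared by both groups. The labels do not say whether a group is a clone or a pool, nor whether its libraries are separate cultures. The tests therefore weigh differences against the spread between libraries, part or all of which may be technical. No gene is listed in the tables, so neither netrin-1 expression nor the identity of the cells could be checked.

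H3K4me3 is laid down by SET1/COMPASS and MLL complexes and marks the start sites of active genes. Bivalent promoters carry it together with H3K27me3, the mark of Polycomb repressive complex 2. In embryonic stem cells such promoters belong mainly to developmental regulators that are silent or weakly transcribed. Netrin-1 is a secreted, laminin-related protein that acts through receptors such as DCC and UNC5 family members.

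Coverage, in the authors' scaled units, was available as an average over sites in bins 10 bp apart from -4000 to 4000 bp around the site centre. One table covers bivalent sites and the other covers H3K4me3 sites that are not bivalent. Negative distances are called upstream here, although the sources used here do not say how sites were oriented. Depth is not given. Every value was a whole multiple of a step particular to its library (tolerance 0.02 of a step), and at bivalent sites the step ran from 3.97e-05 to 5.38e-05 in 5 libraries and was 6.44e-05 in vector replicate 3. Vector replicate 3 goes against its label in part: its central coverage and its non-bivalent inner share lay with the netrin-1 libraries, while its bivalent side ratio and its non-bivalent outer profile did not (values below). Whether its label is right was not tested. Each result is therefore given with all 6 libraries and without it.

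**Figure D1:**
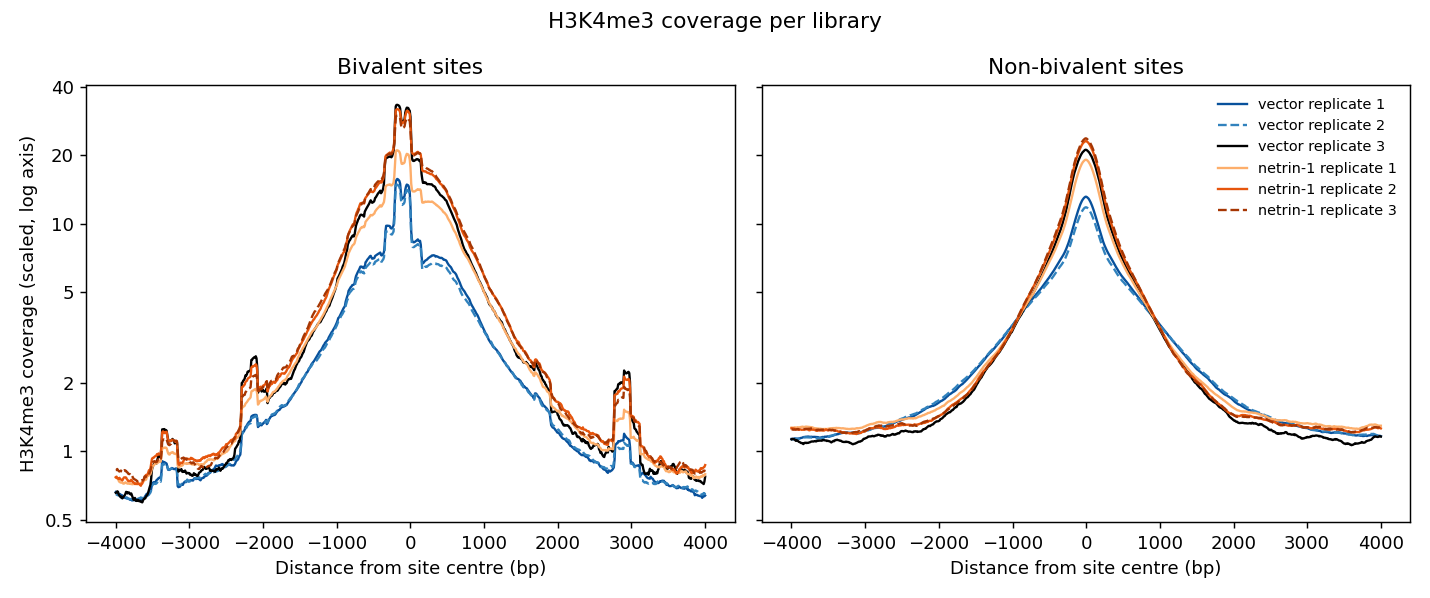
H3K4me3 coverage (scaled units, log axis) against distance from the site centre (bp) in each of the 6 libraries, at bivalent (left) and non-bivalent sites (right). At 0 bp of non-bivalent sites vector replicates 1 and 2 sit at 13.1 and 11.8, while vector replicate 3, at 21.1, lies among the netrin-1 libraries (19.1 to 23.7).

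Coverage at the centre of bivalent sites was higher in all 3 netrin-1 libraries than in vector replicates 1 and 2, but not than in vector replicate 3. At 0 bp vector replicates 1, 2 and 3 read 12.0, 11.4 and 29.5, and netrin-1 replicates 1, 2 and 3 read 17.6, 27.5 and 26.0. Values are given in this order from here on. Vector replicate 3 was thus the highest library at 0 bp, and the groups overlapped. Mean coverage within 1000 bp was 7.26, 6.85 and 14.0 in the vector and 11.1, 14.9 and 14.9 in the netrin-1 libraries. There vector replicate 3 was below netrin-1 replicates 2 and 3. Over the window within 1000 bp, the netrin-1 to vector ratio of means was 1.46 (log2 0.54, two-sided exact permutation p = 0.2). Leaving vector replicate 3 out took the log2 ratio to 0.95 (exact permutation p = 0.1). With all 6 libraries it was 0.33 after each was divided by its flank, the mean of the outermost 500 bp on both sides. It was 0.081 after division by the whole-profile mean (exact permutation p = 0.4 for both divisions). The whole profile includes the window and its high coverage, so the latter division pulls the ratio towards 0 in both site classes. With 3 libraries against 3, or 3 against 2, no exact permutation test can go below 0.1.

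Bin by bin, the netrin-1 mean exceeded the vector mean in every bivalent bin as deposited, by a median log2 ratio of 0.30. The ratio was highest at 170 bp (0.75) and lowest at 3560 bp (0.12). At 170 bp the vector libraries read 6.71, 6.30 and 15.1 and the netrin-1 libraries 12.4, 17.0 and 17.8. The number of bins in each direction depended on scaling. After division of each library by its flank, 135 bins were below 0 and 666 above. After division by the whole-profile mean 618 were below 0 and 183 above, and the median moved to -0.22. Part of this is set by the scaling itself, in both site classes. Flank division gives every library the same flank, which holds the outer ratios near 0. Division by the whole-profile mean gives every library the same mean, so bins on both sides of 0 must arise. The counts after scaling therefore cannot tell whether the direction is unstable.

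The 2 groups did not overlap in 382 bivalent bins (47.7% of all bins), with netrin-1 higher in each. The longest such stretches ran from -1940 to -1290 bp (66 bins), from 1910 to 2530 bp (63 bins) and from -4000 to -3500 bp (51 bins). No bin within 1000 bp of the centre was among them. Once libraries were divided by their flank, 4.24% of bins separated with netrin-1 higher and 3.12% with it lower, and after division by the whole-profile mean 7.99% and 5.62%. Limma is a linear model that pulls each bin's variance towards a value common to all bins. By limma, 0 bins (0.0%) passed an adjusted p of 0.05. The lowest adjusted p was 0.068. At an unadjusted p of 0.05 limma gave 460 bins higher and 0 lower. Neighbouring bins share fragments, so unadjusted counts, here and below, are not separate evidence. With a variance trend 246 bins (30.7% of all bins) passed after adjustment. In the variance-trend fits of both site classes limma took each bin's spread from the trend alone, and their calls lean on that.

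Without vector replicate 3 the groups separated in 100% of bivalent bins, and 100% passed limma's adjusted test with netrin-1 higher. After division by the flank, 72.5% of bins separated with netrin-1 higher and 7.62% with it lower. After division by the whole-profile mean these shares were 14.0% and 71.7%. A bin shares its fragments with its neighbours and a library's deviation runs through the whole profile, so these bins are not separate pieces of evidence. Vector replicate 3 was left out because of its own coverage, so p-values and calls without it, here and below, are descriptive.

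**Figure D2:**
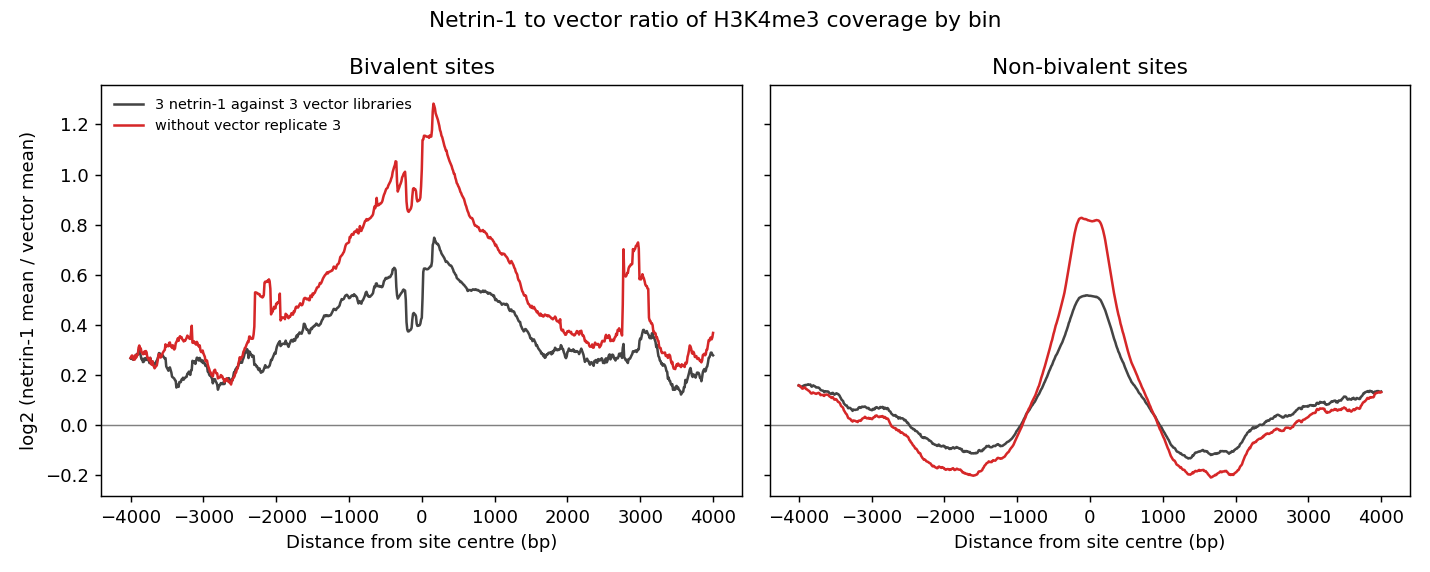
Log2 ratio of the netrin-1 mean to the vector mean of H3K4me3 coverage against distance from the site centre (bp), at bivalent (left) and non-bivalent sites (right), with all 6 libraries (grey) and without vector replicate 3 (red). At bivalent sites both curves stay above 0 in these deposited units, and at non-bivalent sites both lie below 0 between 1000 and 2000 bp, reaching -0.13 and -0.21, and above 0 again beyond 3500 bp.

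The log2 ratio at bivalent sites was then followed by distance on each side. Downstream it went from 0.66 within 250 bp to 0.20 between 3500 and 4000 bp, lower in each range than in the one before. Upstream it was 0.42 within 250 bp, 0.56 between 250 and 500 bp and 0.27 between 3500 and 4000 bp. Between 250 and 500 bp downstream, coverage was 7.10, 6.58 and 13.8 in the vector libraries and 11.8, 15.3 and 15.6 in the netrin-1 libraries (log2 ratio 0.64, exact permutation p = 0.2, 0.267 after adjustment over the 24 distance ranges). Between 1000 and 2000 bp upstream it was 2.14, 2.11 and 2.84 against 2.90, 3.23 and 3.35, without overlap (log2 ratio 0.42, exact permutation p = 0.1, adjusted 0.267). Between 1000 and 2000 bp downstream the log2 ratio was 0.39, but vector replicate 3 at 2.84 passed netrin-1 replicate 1 at 2.81. Of the 12 bivalent ranges, 6 to each side, 3 showed no overlap with all libraries and 12 without vector replicate 3.

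At non-bivalent sites the profile was symmetric, and the ratio changed sign with distance. The log2 ratio was highest at -40 bp (0.52) and lowest at 1350 bp (-0.13). Within 1000 bp the netrin-1 to vector log2 ratio of means was 0.34 (exact permutation p = 0.2). It was 0.52 with vector replicate 3 left out (exact permutation p = 0.1). With all 6 libraries, flank division gave 0.21 (exact permutation p = 0.4) and the whole-profile mean 0.14 (exact permutation p = 0.2). At -40 bp the vector libraries read 12.9, 11.6 and 20.8 and the netrin-1 libraries 18.7, 22.7 and 23.3. At 1350 bp coverage was 2.62, 2.66 and 2.30 against 2.38, 2.28 and 2.25. Vector replicate 3 was again apart from the other vector libraries, above them at the centre and below them on the shoulder.

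All 101 bins within 500 bp lay above 0 and all 200 bins between 1000 and 2000 bp lay below 0, under each of the 3 scalings (as deposited, by the flank and by the whole-profile mean). Neighbouring bins share fragments, so such counts are not separate evidence. Between 1000 and 2000 bp as deposited, the groups overlapped on both sides (exact permutation p = 0.4 each, adjusted 0.436). Vector replicate 3, at 2.08 upstream and 2.11 downstream, was there below every netrin-1 library. Within the deposited scaling, 507 bins were above 0 and 294 below. Dividing by the flank left 189 above 0 and 612 below, and after division by the whole-profile mean 107 and 694. The median over bins moved from 0.06 to -0.07 and -0.16.

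With all 6 libraries the groups did not overlap in 212 non-bivalent bins (26.5% of all bins), all with netrin-1 higher. These lay mainly in the outer profile, from -4000 to -3310 bp (70 bins) and from 2960 to 4000 bp (105 bins). There the differences were small. In the upstream flank coverage was 1.15, 1.15 and 1.11 in the vector libraries and 1.27, 1.25 and 1.25 in the netrin-1 libraries (log2 ratio 0.15, exact permutation p = 0.1, adjusted 0.267). Scaling turned this split, and flank division sets the outer profile to the same mean level in every library. With flank division, 2.37% of bins separated with netrin-1 higher and 61.3% with it lower, and limma then called 18.0% lower. After division by the whole-profile mean the shares were 0.0% and 2.87%. By limma, 0 bins (0.0%) passed in either direction. At an unadjusted p of 0.05 it gave 145 higher and 0 lower, and with a variance trend 202 bins (25.2% of all bins) passed after adjustment.

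Without vector replicate 3 the non-bivalent profile split into zones. From -890 to 890 bp all 179 bins separated with netrin-1 higher. From -2480 to -950 bp (154 bins) and from 960 to 2390 bp (144 bins) they separated with netrin-1 lower. In all, 45.9% of bins separated with netrin-1 higher and 37.5% with it lower. With flank division these shares were 20.3% and 69.9%, and after division by the whole-profile mean 13.1% and 86.3%. As deposited, limma called 253 bins higher (31.6%) and 252 lower (31.5%). At 1350 bp the log2 ratio was -0.20 (limma adjusted p = 0.006), and at -40 bp it was 0.82 (limma adjusted p = 0.006). Between these zones, at 1000 bp, vector replicates 1 and 2 read 3.60 and 3.57 and the netrin-1 libraries 3.47, 3.50 and 3.47 (log2 ratio -0.04, limma adjusted p = 0.12).

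Each library was then followed outward against the mean of vector replicates 1 and 2 at non-bivalent sites. Netrin-1 replicates 1, 2 and 3 fell to or below that mean at 920, 930 and 950 bp upstream and at 920, 950 and 940 bp downstream. They first came back above it at 2520, 2850 and 2740 bp upstream and at 2520, 2840 and 2870 bp downstream. Netrin-1 replicates 2 and 3 then dropped to or below it again in some bins further out on both sides, and replicate 1 did not. Vector replicate 3 crossed at 870 bp upstream and 880 bp downstream. It came back above it only at 3980 bp upstream, and downstream not within the 4000 bp profile. The netrin-1 libraries and vector replicate 3 thus crossed at similar distances from the centre, and they parted further out, where the netrin-1 libraries first returned above that mean nearer the centre.

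**Figure D3:**
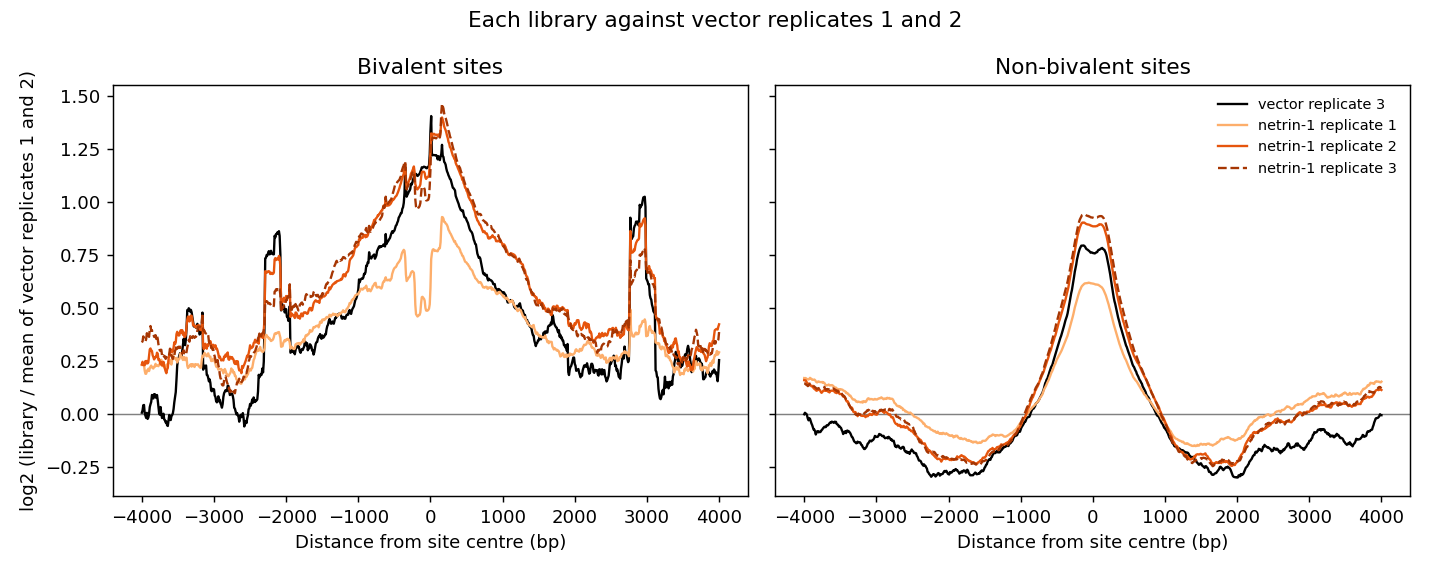
Log2 ratio of vector replicate 3 (black) and of each netrin-1 library (orange) to the mean of vector replicates 1 and 2, against distance from the site centre (bp). At non-bivalent sites (right) vector replicate 3 follows the netrin-1 libraries within 500 bp, where it averages 0.60. Between 500 and 1000 bp it lies inside their range in 55 of 100 bins and below it in 45. It averages -0.22 from 1000 to 2500 bp and -0.11 beyond 2500 bp.

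The place of vector replicate 3 changed with distance. At non-bivalent sites it lay inside the range of the netrin-1 libraries in 101 of 101 bins within 500 bp and in 0 of 300 bins beyond 2500 bp, where it was below all 5 other libraries in 296. At bivalent sites it was inside that range in 78 of 101 bins within 500 bp and above it in the other 23. Beyond 2500 bp of bivalent sites it was below the range in 187 of 300 bins. As the mean absolute log2 difference over bins, its nearest library was netrin-1 replicate 1 at bivalent sites (0.15) and netrin-1 replicate 2 at non-bivalent sites (0.09). Vector replicates 1 and 2 were 0.04 and 0.03 apart and netrin-1 replicates 2 and 3 were 0.05 and 0.02 apart at bivalent and non-bivalent sites. Netrin-1 replicate 1 was 0.20 from netrin-1 replicate 2 at bivalent sites, so neither group was uniform.

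The site classes were next compared within a library, where a scaling factor common to both tables cancels. The step at bivalent sites was 8.72 times that at non-bivalent sites in each of the 6 libraries. Bivalent coverage exceeded non-bivalent coverage in 20.6% and 18.7% of bins in vector replicates 1 and 2 and in 60.0% in vector replicate 3. In the netrin-1 libraries the shares were 52.6%, 59.3% and 58.4%. In vector replicates 1 and 2 the stretch upstream of the centre where bivalent sites were higher began at -1040 and -990 bp. It began between -2300 and -2290 bp in the other 4 libraries, at the edge of a narrow feature described below. Downstream the main stretch ended at 920 and 830 bp in vector replicates 1 and 2. It ended at 2050 bp in vector replicate 3 and at 1900, 2150 and 2140 bp in the netrin-1 libraries.

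**Figure D4:**
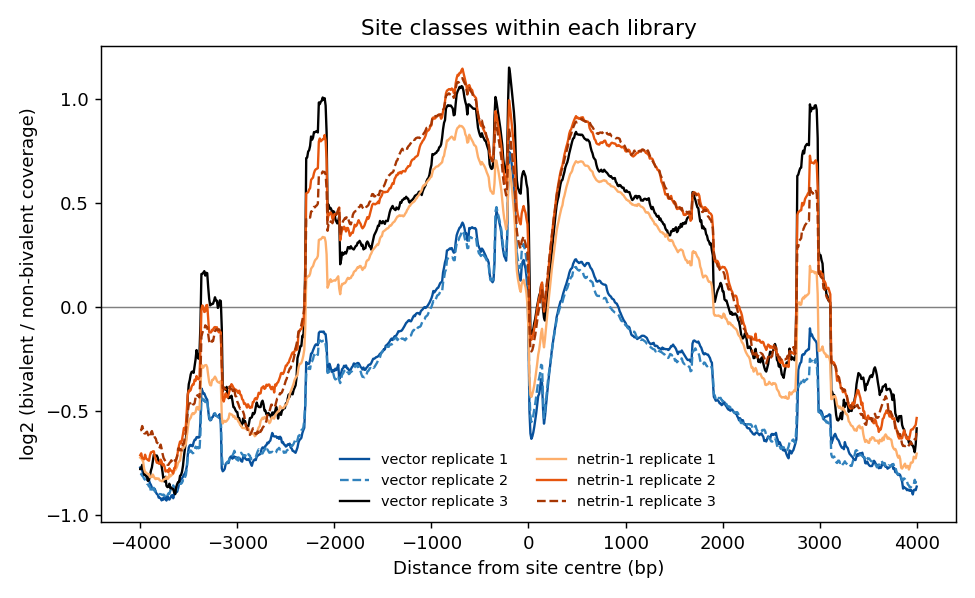
Log2 ratio of bivalent to non-bivalent H3K4me3 signal in each library against distance from the site centre (bp). At 1000 bp vector replicates 1 and 2 lie just below 0 (-0.08 and -0.09), and vector replicate 3 (0.55) lies with the netrin-1 libraries (0.52 to 0.76).

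At the outer ends bivalent sites had less H3K4me3 than non-bivalent sites in every library. The bivalent flank was 0.562, 0.565 and 0.651 times the non-bivalent one in the vector libraries, and 0.603, 0.643 and 0.654 times in the netrin-1 libraries. The groups overlapped here.

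The class ratio (bivalent over non-bivalent, log2, within 1000 bp) averaged 0.285 ± 0.291 (SD, n = 3) in vector and 0.535 ± 0.117 (SD, n = 3) in netrin-1 libraries, a difference of 0.25 (exact permutation p = 0.3). Without vector replicate 3 the difference was 0.42 (exact permutation p = 0.1). With all 6 libraries it was 0.15 after flank division (exact permutation p = 0.3), and division by the whole-profile mean turned it to -0.060 (exact permutation p = 0.1). Each table was divided by its own flank or mean, so these values no longer hold the difference in flank or overall level between the classes. The change of sign therefore cannot tell whether the class difference is unstable. By bin, the difference was highest at 1180 bp (0.59) and lowest at -150 bp (-0.09). At 1180 bp the log2 class ratio was -0.14, -0.16 and 0.51 in the vector libraries and 0.48, 0.75 and 0.76 in the netrin-1 libraries.

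With all 6 libraries, the class ratio separated the groups in 64 bins (7.99%), with netrin-1 higher. By limma 0 bins (0.0%) passed in either direction. At an unadjusted p of 0.05 it gave 199 higher and 0 lower, and with a variance trend 0 passed after adjustment. Without vector replicate 3, 97.3% of bins separated and limma called 657 (82.0%), all with the ratio higher in netrin-1 libraries. In that fit limma estimated the same spread for every bin, and its calls lean on that estimate. The bins that did not separate lay from -210 to 0 bp, inside the narrow central feature of the bivalent profile.

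The shape of the profiles was compared by the share of coverage above the flank that lay within 500 bp of the centre, which needs no scaling between libraries. At non-bivalent sites this inner share was 54.5%, 52.1% and 67.1% in the vector libraries and 65.3%, 69.3% and 69.9% in the netrin-1 libraries. The difference was 10.3 percentage points (exact permutation p = 0.2), and 14.8 without vector replicate 3 (exact permutation p = 0.1). At bivalent sites it was 50.9%, 50.3% and 58.1% against 52.6%, 56.2% and 56.0%, a difference of 1.88 points (exact permutation p = 0.6). Without vector replicate 3 that difference was 4.38 points (exact permutation p = 0.2), and with all 6 libraries and a 250 bp inner window it was 0.376 points (exact permutation p = 0.8).

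At bivalent sites, the balance of the sides was a measure in which vector replicate 3 stayed with its own group. Within 1000 bp of bivalent sites, the log2 ratio of upstream to downstream coverage was 0.41, 0.42 and 0.43 in the vector libraries and 0.28, 0.34 and 0.29 in the netrin-1 libraries. The groups did not overlap, with a difference of -0.12 (exact permutation p = 0.1, 0.28 after adjustment over 7 tests), and -0.11 without vector replicate 3. Most of it lay close to the centre. Without the bins within 350 bp on both sides, an alternative added after the data were seen, the difference was -0.014 (exact permutation p = 0.2). At non-bivalent sites the log2 ratio was near 0, at 0.009, 0.007 and 0.019 in the vector and 0.023, 0.030 and 0.028 in the netrin-1 libraries (difference 0.015, exact permutation p = 0.1, adjusted 0.28). There vector replicate 3 lay between the other vector libraries and the netrin-1 libraries.

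**Figure D5:**
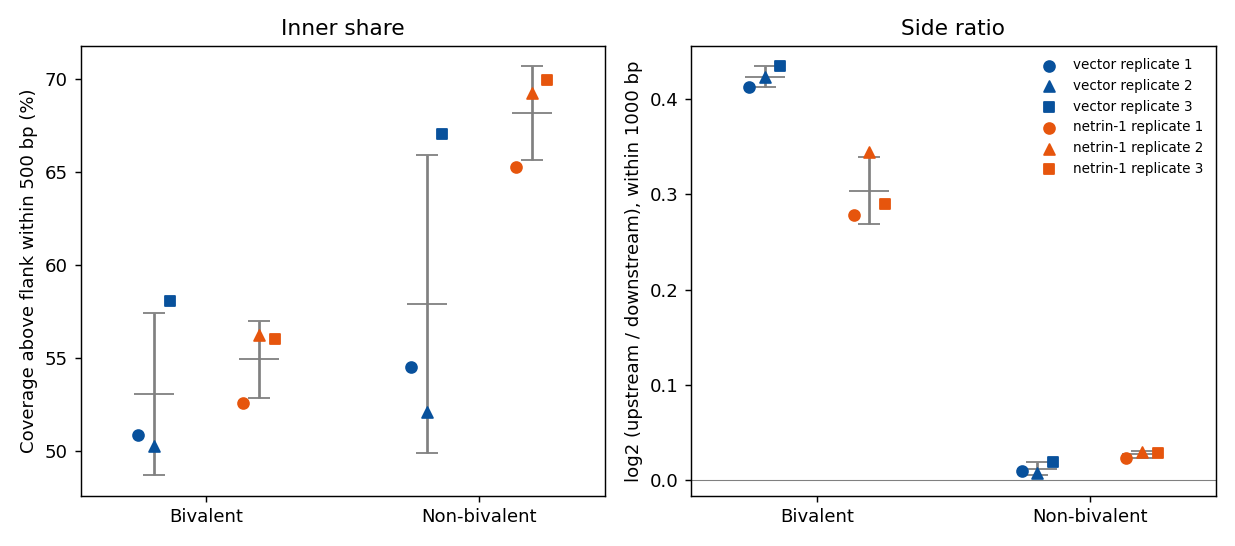
Inner share (left, percent of coverage above the flank that lies within 500 bp) and log2 ratio of upstream to downstream coverage within 1000 bp (right), with 1 point per library and the group mean ± SD (grey, n = 3). The square for vector replicate 3 lies with the netrin-1 libraries for the non-bivalent inner share (67.1%) and with the vector libraries for the bivalent side ratio (0.43).

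The bivalent profile carried narrow features on top of its broad slope. Local maxima whose prominence was at least 10% of their height, a rule chosen after the profiles were seen, lay at -3360, -2100, -180, -50 and 2900 bp. The non-bivalent profile had 1, at -10 bp. The outer features had steep edges. Between 2760 and 2770 bp coverage went from 0.850 to 0.916, 0.895 to 1.02 and 1.21 to 1.84 in the vector libraries. In the netrin-1 libraries it went from 1.10 to 1.36, 1.29 to 1.76 and 1.26 to 1.60 over the same bins. The mean rise was 26.1%, against at most 1.32% in size between any neighbouring bins beyond 1000 bp of non-bivalent sites.

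All 5 features ranked the libraries alike. Vector replicate 3 was highest, followed by netrin-1 replicates 2, 3 and 1 and then vector replicates 1 and 2. At -180 bp the vector libraries read 15.7, 14.9 and 33.3 and the netrin-1 libraries 21.0, 31.9 and 29.9. At 2900 bp they read 1.20, 1.09 and 2.27 against 1.53, 2.13 and 1.92. Relative to coverage 250 bp to either side, the feature at 2900 bp stood 1.47, 1.37 and 2.44 times as high in the vector libraries and 1.53, 2.0 and 1.79 times in the netrin-1 libraries. At the maximum of non-bivalent sites the order differed, with netrin-1 replicates 3 and 2 at 23.7 and 23.1 above vector replicate 3 at 21.1. How many sites give rise to each feature was not tested, because the tables hold averages over sites.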

How the data were processed

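ChIP-seq signal for H3K4me3 was taken from 2 tables, 1 per site class, with 6 columns of coverage signal each and no pooling of replicates. Per the file headers, the deposited coverage is given by distance from the site centre. Per the submitters' processing notes, the authors used BWA, Picard, MACS2, HOMER and the build mm9 (versions not given). How coverage was scaled and sites were chosen is not given in the sources used here. Both tables lack columns of + or - tags, so strands were not analysed here.

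Column names gave cell line and replicate, and table names gave mark and site class. Single values were tested by two-sided exact permutation of library labels (20 arrangements, or 10 without vector replicate 3), with Benjamini-Hochberg adjustment. Bins were tested on log2 coverage (pseudocount 0) with limma 3.58.1 in R 4.3.3, adjusted over the bins of a table, after a test on simulated data. The simulation drew independent noise for each bin, so it cannot show how limma behaves on bins that share fragments. Its planted changes were set in scattered bins and were larger than the ratios found with all 6 libraries. It therefore cannot show how often limma finds changes of the size reported. No bin was filtered out, and no columns shared a value in any bin. Bins named are the centre, the highest bin on each side, set distances (250, 500, 1000, 2000 and 4000 bp) and the bins of highest and lowest ratio. Other bins named were chosen after their values were seen. Measures, ranges and alternatives were chosen with earlier results of these data known.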

Additional observations from a re-analysis of the deposited data

How the results depend on the processing

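Of 83 recomputed single values, 82 kept their direction, but several changed in size by over 1.5 times, and none could cross 0.05. Dividing by the flank and by the whole-profile mean gave 0.33 and 0.081 for the bivalent centre and 0.21 and 0.14 for the non-bivalent centre. The whole-profile mean includes the centre itself, which pulls the second value of each pair towards 0. The class difference was 0.15 after flank division and 0.16 in a 500 bp window, and the bivalent side ratio difference was -0.18 in that window. The bivalent inner share difference was 0.376 points with a 250 bp inner window. Without the bins from -350 to 150 bp, chosen after the data were seen, it was 3.08 points, the class difference 0.40 and the non-bivalent centre 0.23. The value that changed sign was the class difference within 1000 bp, at -0.060 after division by the whole-profile mean. That division takes out the difference in overall level between the classes. Of 24 distance ranges, 22 kept their direction without vector replicate 3. Those that turned were the non-bivalent ranges from 2000 to 3500 bp, to -0.035 upstream and -0.016 downstream. The cause was not tested.

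When 1 library was dropped, the log2 ratios were 0.36 to 0.95 at bivalent and 0.24 to 0.52 at non-bivalent centres, and class differences of 0.17 to 0.42. Inner shares differed by 0.479 to 4.38 points at bivalent and 7.38 to 14.8 points at non-bivalent sites, and side ratios by -0.14 to -0.11 and 0.013 to 0.019. Each upper end but that of the bivalent side ratio came without vector replicate 3. The share of bins called by limma ranged from 0 to 100% (bivalent higher), 0 to 31.6% (non-bivalent higher), 0 to 31.5% (non-bivalent lower) and 0 to 82.0% (class difference higher), each being 0 unless vector replicate 3 was left out.

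With all 6 libraries limma called 0 bins. A variance trend called 30.7% of bivalent and 25.2% of non-bivalent bins higher. Division by the flank called 18.0% of non-bivalent bins lower. Division by the whole-profile mean called the class difference higher in 30.3% and lower in 11.6% of bins, with the overall level difference between the classes taken out. A pseudocount of 0.5 and every 20th bin gave 0. The replicate block called 12.7% of non-bivalent bins higher and the class difference higher in 36.1%. In the block fit of the class difference limma estimated the same spread for every bin, and in the variance-trend fits it used the trend alone. Deviations of same-numbered libraries correlated at 0.970, -0.908 and 0.891 for replicates 1, 2 and 3. Pairs of unlike number gave -0.984 to 0.981. A group's deviations sum to 0, so pairing cannot be judged. The block gave 0.61 and 0.36 for the centres (exact sign-flip p = 0.25 each, the smallest 3 pairs allow). Alternatives on tag columns were not run. Depth is not given, and the sources used here do not say whether a step is 1 fragment, so no counting error is given.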
